A study of Mus musculus with 9 samples.

Results

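The genes described are 10 enzymes of the de novo synthesis of pyrimidine and purine nucleotides: Cad, Dhodh and Umps of the pyrimidine branch, Ppat, Gart, Pfas, Paics, Adsl and Atic of the purine branch up to inosine monophosphate (IMP), and Impdh2, which leads from IMP towards guanine nucleotides. They were chosen by symbol and matched by gene ID, and all 10 of 10 were found among the 54838 genes counted. RNA sequencing covered B16F10, a melanoma line of C57BL/6 mice grown on plates for 4 days, and CD8+ T cells taken with an isolation kit from spleen of adult mice of the C57BL/6 strain. Cells spent 5 h in medium without or with 600 µM hypochlorous acid (HOCl), the oxidant that neutrophil myeloperoxidase makes. B16F10 had 3 libraries per condition, and T cells had 2 untreated libraries and 1 with HOCl. B16F10 stands for melanoma as a single cultured line. Whether replicates were separate cultures or mice, and whether spleens were pooled, is not given in the sources used here, so the p-values below rest on a spread between libraries that may be technical. The laboratory codes of the untreated T cell libraries differ in form, and what that marks is not given either.

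De novo synthesis makes the bases from small precursors such as amino acids and carbon dioxide. Purines are built stepwise on a ribose phosphate, with folate-bound carbon, whereas the pyrimidine ring is made first and then joined to ribose phosphate. Salvage recovers ready-made bases and nucleosides. In the pyrimidine branch CAD, a multifunctional protein, makes dihydroorotate from glutamine and aspartate, DHODH oxidises it at the inner mitochondrial membrane, and UMPS joins the orotate formed to ribose phosphate and finishes uridine monophosphate. In the purine branch PPAT takes the committing step, GART, PFAS, PAICS, ADSL and ATIC carry the ring to IMP, and IMPDH2 starts the arm to guanosine monophosphate. Dividing cells, tumour cells and activated lymphocytes among them, lean on these routes for RNA and DNA, whereas resting T cells are known to draw more on salvage.

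Gene counts per library came to 45.9 to 61.3 M in B16F10 and to 49.9 and 52.1 M in T cells without HOCl. The 10 genes had 959 to 20480 counts each in B16F10 libraries and 681 to 6277 in untreated T cells, so none rests on few reads. The defining markers were present: 8 melanoma markers summed to 24160 to 25194 counts per M (CPM) in B16F10, and 10 T cell markers to 7051 and 5644 CPM in the untreated T cell libraries. Those T cell libraries also held 5 B cell markers at 1260 and 2358 CPM, none of them at 0. HOCl replicate 3 of B16F10 had the T cell markers at 49.8 CPM and the B cell markers at 16.03 CPM, against 6.80 to 8.35 and 0.588 to 1.06 CPM in the other B16F10 libraries. The library labelled T cell HOCl differed in makeup, with counts in 44225 genes against 22855 to 25907 in every other library. It had 12.8 M counts, 37.4% of them mitochondrial against 1.55% and 2.11% in untreated T cells, melanoma markers at 6759 CPM against 102 and 25.7, and T cell markers at 781 CPM.

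The genes lie apart on 7 chromosomes except for 1 pair (GRCm38, GENCODE M21 positions). Ppat (chromosome 5, 76913249 to 76951578, minus strand, 12 exons) and Paics (chromosome 5, 76951307 to 76967509, plus strand, 9 exons) stand head to head and share 272 exon bases. Reads in that stretch cannot be told apart if the counting did not use strand, which is not given in the sources used here. Cad lies further along chromosome 5 towards its start (31054780 to 31078479, plus strand, 44 exons). Impdh2 (chromosome 9, 108560286 to 108565584) has a processed pseudogene copy, Impdh2-ps, which drew 1460 counts over the 9 libraries against 46915 for Impdh2, so a small share of its reads is of uncertain origin. An antisense gene shares 1014 exon bases with Gart (chromosome 16, 91621186 to 91646952) but drew only 114 counts.

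Of the 10 genes, 8 had a promoter entry in RefSeq (GRCm38.p6, 250 bases before to 50 after the start). The letters CACGTG, the E-box that MYC and its relatives as well as USF factors recognise, stood in 3 of these 8, Atic, Impdh2 and Paics, while 7.15% of all 32851 promoters of that length held them. CACGTG reads the same on both strands. The matches began 7, 110 and 203 bases before the RefSeq starts, and in GENCODE they overlap annotated exons: of Atic, of Impdh2, and for Paics of its head-to-head neighbour Ppat. The stretches are printed because Myc, Mga and Usf1, whose products bind such letters, are among the factors measured below. They are given on the plus strand with the E-box in capitals.
Atic, chr1:71556906-71557155: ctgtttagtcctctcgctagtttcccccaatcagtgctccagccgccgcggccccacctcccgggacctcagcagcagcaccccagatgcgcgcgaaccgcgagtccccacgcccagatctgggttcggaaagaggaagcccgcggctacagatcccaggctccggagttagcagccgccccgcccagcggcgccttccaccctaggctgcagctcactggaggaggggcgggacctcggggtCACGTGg
Impdh2, chr9:108560314-108560343: gagctcgataagCACGTGgttacccagctc
Paics, chr5:76951087-76951116: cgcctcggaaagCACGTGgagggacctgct
The CCAAT box (CCAAT or, on the other strand, ATTGG) was in 4 of the 8, Atic, Gart, Impdh2 and Paics, and in 37.4% of all promoters. A site of E2F factors (TTTCGCGC, TTTGGCGC or TTTCCCGC, either strand) was in that of Ppat alone, against 1.84% of all promoters. The palindrome of NRF1 and the ATF4 letters TGATGCAA were in 0 of the 8, and in 0.971% and 0.895% of all. These matches describe letters only.

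Transcripts of most of the 10 enzymes were lower in B16F10 cells given HOCl, by modest amounts. The 8 that fell were Dhodh, Impdh2, Ppat, Atic, Cad, Umps, Gart and Paics. Pfas and Adsl did not pass, and 0 of the 10 were higher (edgeR's quasi-likelihood F test, Benjamini-Hochberg adjusted over 16082 genes, threshold 0.05). Over all genes tested 13.5% were called lower and 14.7% higher, 28.3% in all. The median log2 fold change of the 10 was -0.19, against -0.01 over all genes, and all 10 estimates were below 0. Summed over the 10 genes, the level was 1568 ± 9.91 CPM in untreated cells and 1385 ± 6.98 CPM with HOCl (SD, n = 3 per group). In bulk RNA, a change per cell and a change in the share of cells that express a gene cannot be told apart.

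**Figure D1:**
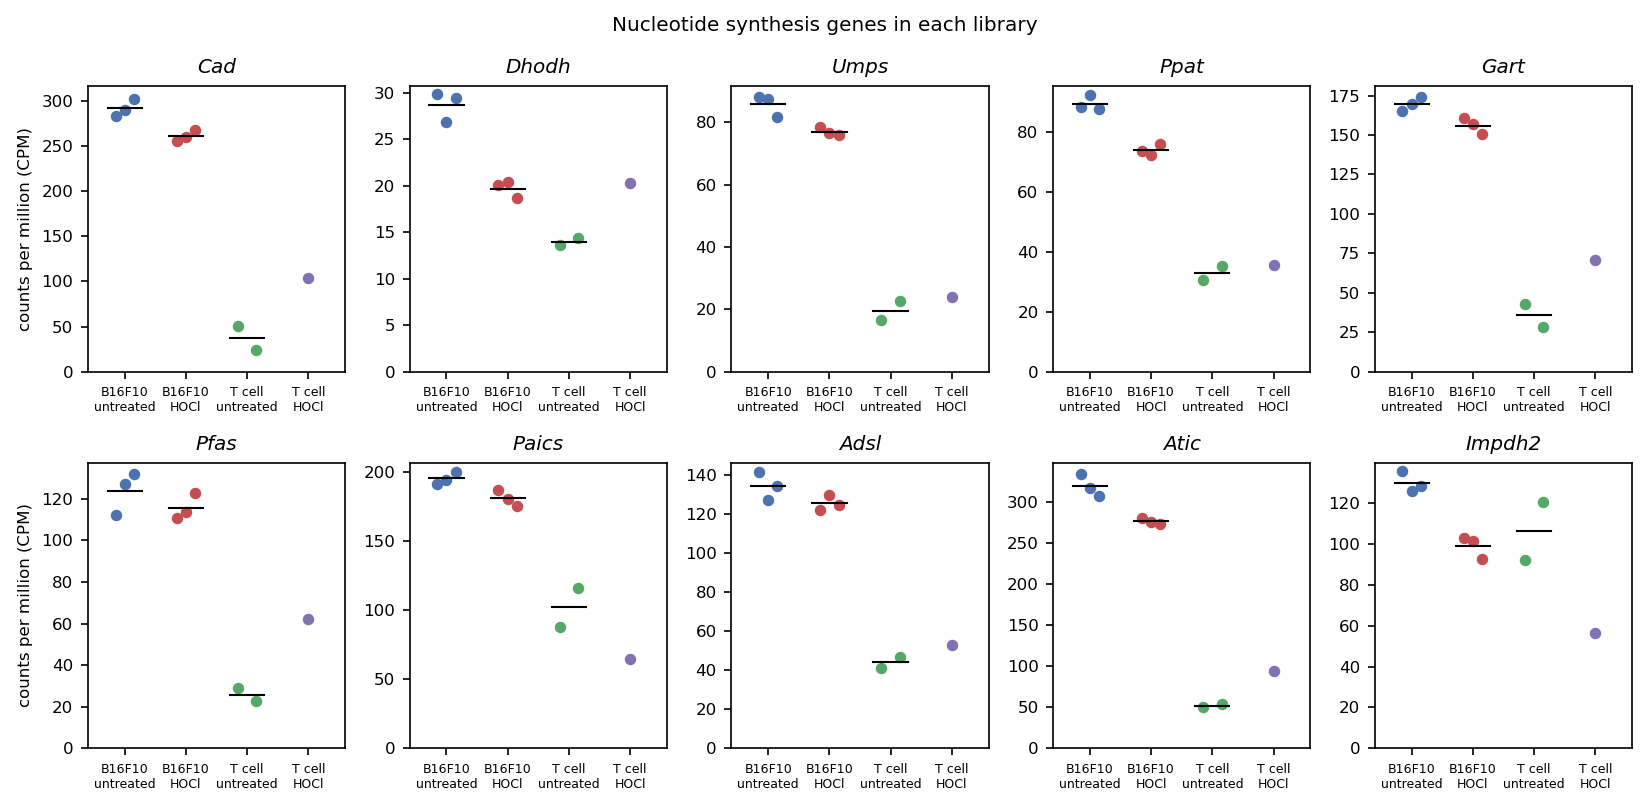
Each panel shows 1 gene, with every library as a point and the group mean as a line, in counts per M on an axis from 0. In B16F10 the HOCl points lie below all untreated points for 8 of the 10 genes, with overlap for Pfas and Adsl, and all 10 genes are lower in untreated T cells than in untreated B16F10.

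Among the pyrimidine genes, Dhodh, the mitochondrial step, changed most. Its level was 29.9, 26.9 and 29.4 CPM in the untreated libraries and 20.0, 20.4 and 18.7 CPM with HOCl. The groups did not overlap, and over all genes 18.4% had HOCl ranges wholly below the untreated ones and 25.2% wholly above. Dhodh fell by 32.8%, a log2 fold change of -0.57 ± 0.07 (SE; 95% interval -0.73 to -0.42, edgeR adjusted p = 0.00014). It also had the lowest level per length of the 10 genes.

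Cad, whose protein opens the pyrimidine branch, stood at 283, 290.1 and 303 CPM without and 255, 260.1 and 268 CPM with HOCl. All HOCl libraries were below all untreated ones. The log2 fold change was -0.19 ± 0.05 (edgeR adjusted p = 0.00961), so that Cad fell by 12.2%. The call did not hold without untreated replicate 3 (adjusted p = 0.0562), HOCl replicate 1 (0.0628) or HOCl replicate 2 (0.0528). Umps, which completes uridine monophosphate, read 88.0, 87.3 and 81.7 CPM untreated and 78.3, 76.4 and 76.0 CPM with HOCl. Again the ranges were apart, with a log2 fold change of -0.18 ± 0.05 (edgeR adjusted p = 0.0184). That call was lost without untreated replicate 2 (0.0593) or without HOCl replicate 1, 2 or 3 (0.0543, 0.0775 and 0.0845).

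At the head of the purine branch, Ppat, the committing amidotransferase, fell by 18.7%. Its level was 88.5, 92.4 and 87.9 CPM in untreated cells and 73.8, 72.6 and 76.2 CPM with HOCl, which do not overlap. The log2 fold change was -0.30 ± 0.05 (95% interval -0.41 to -0.19, edgeR adjusted p = 0.000867). Its head-to-head neighbour Paics, which carries a pair of later steps, changed less, from 191, 194 and 199.8 CPM to 186, 180.5 and 175 CPM. The Paics ranges were also apart, and its log2 fold change was -0.14 ± 0.05 (edgeR adjusted p = 0.0445). The difference between the neighbours was not tested.

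Gart, whose protein carries several early purine steps, had 165, 169.6 and 174 CPM untreated and 161, 157 and 150.5 CPM with HOCl. Every HOCl library was below every untreated one, by a log2 fold change of -0.15 ± 0.05 (edgeR adjusted p = 0.0370). Gart and Paics were the weakest of the 8 calls. Each was lost without TMM scaling (adjusted p = 0.0786 for Gart and 0.0960 for Paics), without the filter on low counts (0.0531 and 0.0745), and without any single library but untreated replicate 1 (0.0683 to 0.177 for Gart and 0.0754 to 0.197 for Paics).

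Pfas, a glutamine-using step, ranged from 112 to 132 CPM in untreated cells and from 111 to 123 CPM with HOCl. The groups overlapped, and the log2 fold change of -0.12 ± 0.06 (95% interval -0.26 to 0.02) gave an edgeR adjusted p of 0.173. It passed, at 0.00130, only without untreated replicate 1, the library with the lowest untreated level. Adsl, the lyase used both on the way to IMP and on the way to adenosine monophosphate, ranged from 127 to 142 CPM and from 122 to 129.9 CPM, also with overlap. Its log2 fold change was -0.12 ± 0.05 (95% interval -0.24 to -0.01, edgeR adjusted p = 0.103). Both intervals include values as low as that of Cad.

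Atic, which closes the purine ring, had 334, 317 and 308 CPM without and 281, 275 and 273 CPM with HOCl. The groups were apart, and the log2 fold change was -0.24 ± 0.05 (edgeR adjusted p = 0.00300), so that Atic fell by 15.1%. Impdh2, the gate to guanine nucleotides, fell by 25.4%. It stood at 136, 126 and 128 CPM in untreated cells and at 103, 101 and 92.5 CPM with HOCl, with no overlap. The log2 fold change of -0.42 ± 0.06 (95% interval -0.55 to -0.30) had an edgeR adjusted p of 0.000230, and only Dhodh among the 10 had a lower estimate.

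**Figure D2:**
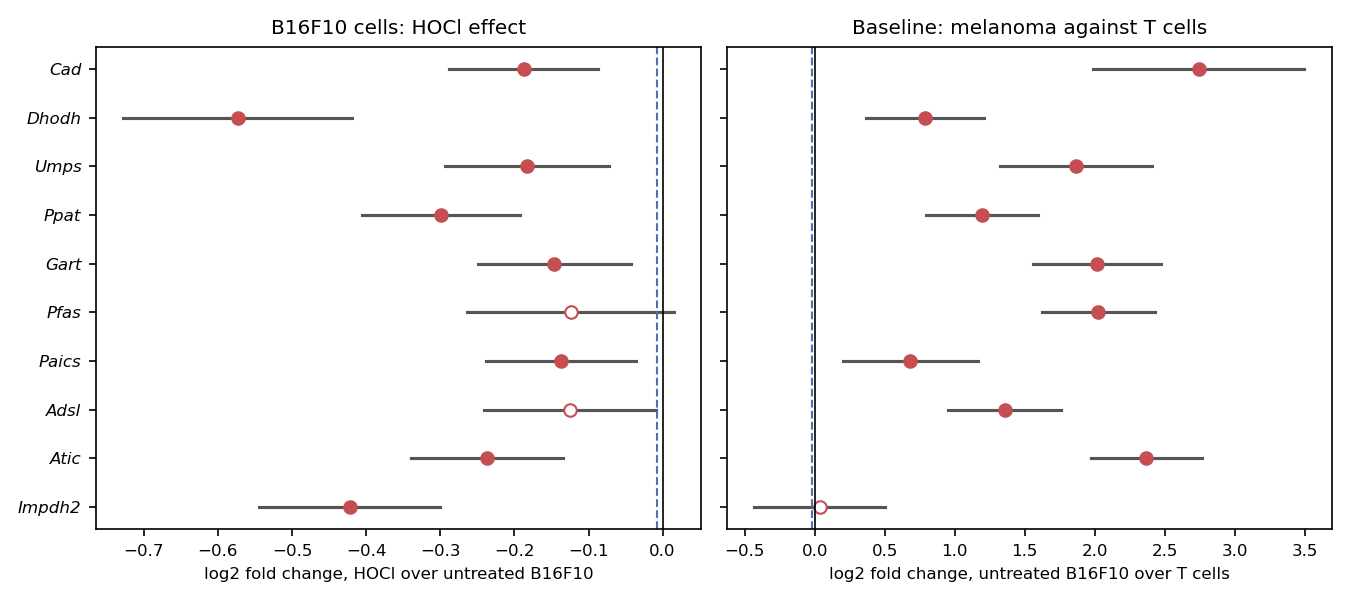
Points are log2 fold changes and bars their 95% intervals, for HOCl over untreated B16F10 on the left and untreated B16F10 over untreated T cells on the right. Filled points passed an adjusted p of 0.05, and the dashed line is the median over all genes tested. Dhodh and Impdh2 lie farthest left in the HOCl panel, and Impdh2 alone has an interval that spans 0 in the other.

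The calls for Dhodh, Ppat, Atic and Impdh2 held when any single library was left out. With 1 library left out at a time, 4 to 9 of the 10 genes were called lower, and without HOCl replicate 3, the library with T and B cell marker counts, 5 were. No call among the 10 survived a test against a 1.5-fold change or a fit of all 9 libraries together, where the spread is shared with the T cell libraries. In the authors' deposited table for B16F10 the same 8 genes carried an adjusted p under 0.05, all with negative log2 fold changes, from -0.54 for Dhodh to -0.13 for Paics. That table does not name its groups by treatment, so its sign also rests on the order of its groups. Proliferation markers were lower in the same libraries: 11 of 12 passed downward and their sum went from 3399 to 3481 CPM in untreated cells to 2626 to 2678 CPM with HOCl. Their part in the falls of the synthesis genes was not tested.

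Other enzymes of the same routes were examined as lists. Their counts are to be read beside the 14.7% of all genes tested that were called higher and the 13.5% called lower. Of 10 further de novo genes 5 were lower and 0 higher, with a median log2 fold change of -0.19. Ctps, which makes cytidine triphosphate, fell from 103 ± 1.48 to 88.1 ± 2.82 CPM, a log2 fold change of -0.25 ± 0.05. Adssl1, an adenylosuccinate synthase, had -0.25 ± 0.08, and its call was lost without any single library and without TMM. Left out 1 at a time, the libraries gave 2 to 5 lower genes in this list. Nucleotide kinases, which turn monophosphates into triphosphates, had 4 lower and 0 higher of 13 (2 to 5 lower with 1 library left out). Nme4 had -0.42 ± 0.09 and Guk1 -0.29 ± 0.09, and Guk1 lost its call without any 1 HOCl library.

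Genes of deoxynucleotide supply, which feed DNA synthesis, had the lowest median of the 10 lists around these enzymes. Of 11, 10 fell and 1 rose, with a median of -0.40, and these counts were the same with any single library left out. Cmpk2, a mitochondrial kinase that is also interferon-inducible, fell from 48.3 ± 0.775 to 22.2 ± 0.431 CPM and Dut, which removes deoxyuridine triphosphate, from 124 ± 8.64 to 81.9 ± 0.749 CPM. The riser was Rrm2b, the p53-inducible ribonucleotide reductase subunit, from 31.6 ± 3.45 to 43.0 ± 2.65 CPM. Salvage genes were mixed, with 3 higher and 7 lower of 17 (1 to 3 and 3 to 7 with 1 library left out). Tk1, the thymidine kinase of S phase, fell from 125 ± 10.9 to 69.9 ± 2.15 CPM, a log2 fold change of -0.86 ± 0.06, and Uck1, a uridine kinase, rose by 0.28 ± 0.06. Upp1 and Upp2, uridine phosphorylases below 6 CPM, had 0.38 ± 0.13 and -0.55 ± 0.19. Upp1 lost its call without any single library but untreated replicate 1, Upp2 without any but untreated replicate 3.

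**Figure D3:**
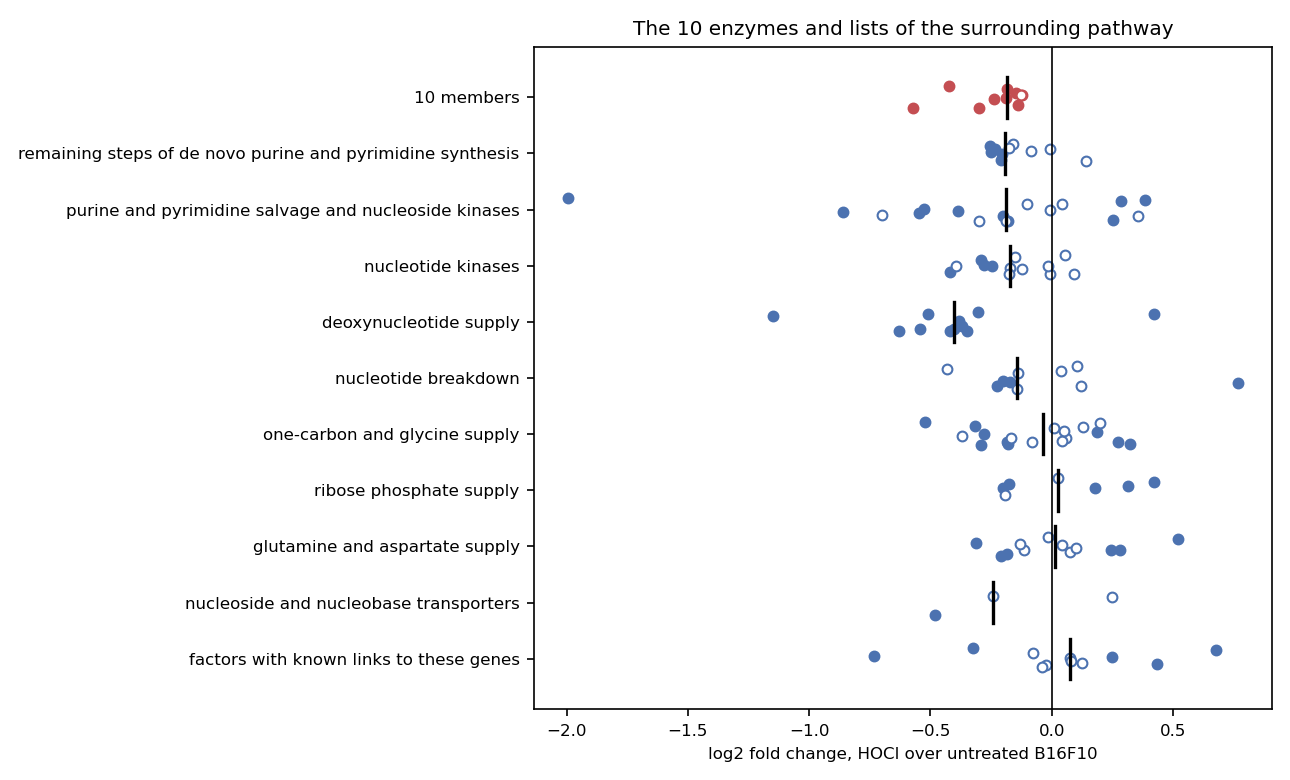
Each point is the log2 fold change of 1 gene between HOCl and untreated B16F10, in rows for the 10 enzymes (red) and 10 lists of surrounding genes (blue), with a bar at each median. Filled points passed an adjusted p of 0.05. The deoxynucleotide list has the lowest median, -0.40, and the ribose phosphate list lies around 0.

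Lists of building-block supply had medians near 0. Ribose phosphate genes had 3 higher and 2 lower of 7, with a median of 0.02 (0 to 2 lower with 1 library left out). Pgd and G6pdx, the oxidative enzymes of the pentose phosphate pathway, rose from 299.7 ± 24.3 to 410 ± 14.5 CPM and from 229 ± 2.75 to 290.3 ± 6.19 CPM. Rpia had -0.20 ± 0.07 and Tkt -0.18 ± 0.05, of which the first lost its call without any single library but HOCl replicate 2 and the second without any but untreated replicates 1 and 2. Folate and glycine genes had 3 higher and 6 lower of 18 (median -0.03). Aldh1l2, a mitochondrial formyltetrahydrofolate dehydrogenase, rose by 0.27 ± 0.09, while Shmt1, the cytosolic serine hydroxymethyltransferase, fell by 0.52 on the log2 scale and Gcsh of the glycine cleavage system by 0.32. The Aldh1l2 call was lost without any 1 HOCl library.

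Glutamine and aspartate genes had 3 higher and 3 lower of 12 (median 0.01, 2 to 5 lower with 1 library left out). Gpt2, an alanine transaminase, rose by 0.52 ± 0.06 and Slc38a2, a glutamine importer, by 0.28 ± 0.05, while Slc25a13, the mitochondrial aspartate carrier, fell by 0.31 and Got2 by 0.21 on the log2 scale. Breakdown genes had 1 higher and 3 lower of 10 (median -0.14, 1 to 2 higher and 0 to 2 lower with 1 library left out). Ampd3, an AMP deaminase, rose from 40.9 ± 4.52 to 70.9 ± 1.71 CPM. Nt5c and Nt5c3b, nucleotidases, had -0.22 ± 0.07 and -0.20 ± 0.06, and both lost their calls without HOCl replicate 2 or 3, Nt5c also without untreated replicate 1 or 3 and Nt5c3b without untreated replicate 2. Of 8 nucleoside transporter genes 3 were expressed enough to test, and Slc29a1, the equilibrative carrier ENT1, fell from 36.4 ± 1.07 to 26.6 ± 1.11 CPM.

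Of 11 factors with known links to nucleotide synthesis genes, 3 were higher and 2 lower (median 0.08). Atf4, the amino acid stress factor, rose from 358 ± 23.0 to 584 ± 16.4 CPM. Mga, a MAX partner that binds E-box letters and opposes MYC, rose by 0.43 ± 0.10. E2f1, a factor of S phase entry, fell from 89.0 ± 4.11 to 54.6 ± 1.62 CPM and Myc from 60.0 ± 0.310 to 48.8 ± 3.00 CPM, a log2 fold change of -0.33 ± 0.06. These are transcript levels, and binding was not measured. Over all 10 lists, 17 of 112 genes tested were higher and 43 lower, with a median of -0.16. Over all genes tested, 14.7% were called higher and 13.5% lower, so the higher calls in the lists were near the general share. Whether any list departs from these shares was not tested.

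Without HOCl, melanoma cells held more transcript of these enzymes than T cells did. In untreated B16F10 9 of the 10 genes were higher than in untreated T cells, 0 were lower, and Impdh2 did not pass (edgeR's quasi-likelihood F test, Benjamini-Hochberg adjusted over 18352 genes). Cell type, culture on plates and isolation from spleen differ together in this comparison and cannot be told apart. The groups differ widely: 35.8% of all genes tested were called higher and 35.4% lower. The CPM ranges were apart, with B16F10 higher, for all 10 genes and for 46.0% of all genes. The median log2 fold change of the 10 was 1.61, against -0.02 over all genes. Without TMM scaling the median of all genes moved to 0.22 and that of the 10 to 1.87. Their summed level was 1568 ± 9.91 CPM in B16F10 and 454 and 485 CPM in the T cell libraries. The 3 untreated B16F10 libraries are also those of the HOCl comparison.

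Cad differed most, at 50.4 and 24.3 CPM in the untreated T cell libraries against 283 to 303 CPM in B16F10. The T cell libraries differed from each other, and both were below every B16F10 library. The fold was 6.68, a log2 fold change of 2.74 ± 0.31 (edgeR adjusted p = 0.000530). Atic was next, at 50.7 and 53.5 CPM against 308 to 334 CPM, a log2 fold change of 2.37 ± 0.16 (edgeR adjusted p = 6.43e-05). Here the T cell libraries were close together, and the fold was 5.16.

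Pfas (28.8 and 22.8 CPM in T cells) and Gart (42.7 and 28.7 CPM) had log2 fold changes of 2.02 ± 0.17 and 2.01 ± 0.19, folds of 4.07 and 4.03. Umps, at 16.5 and 22.8 CPM, had 1.87 ± 0.22, Adsl, at 41.3 and 46.9 CPM, 1.36 ± 0.17, and Ppat, at 30.5 and 35.2 CPM, 1.19 ± 0.16. The edgeR adjusted p of these 5 lay between 0.000129 for Pfas and 0.00113 for Ppat. Dhodh, at 13.6 and 14.4 CPM, had 0.79 ± 0.17 (edgeR adjusted p = 0.00720) and Paics, at 87.5 and 116 CPM, 0.68 ± 0.20 (0.0216). The calls of this last pair were lost without any single untreated B16F10 library.

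Impdh2 stood outside the rest. It read 91.9 and 120.5 CPM in the untreated T cell libraries and 126 to 136 CPM in B16F10, a log2 fold change of 0.03 ± 0.19 (95% interval -0.43 to 0.50, edgeR adjusted p = 0.881). The CPM ranges were apart, but after TMM scaling the sign of the estimate depended on the processing, from -0.18 without T cell replicate 1 to 0.36 without T cell replicate 2, where it passed the threshold.

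Isozymes of the same steps had unlike distributions over the cell types. Per kilobase of exon union, Impdh1, the other IMP dehydrogenase, stood at 7.92 ± 0.184 CPM in B16F10 (SD, n = 3) and 30.7 ± 6.51 CPM in T cells (SD, n = 2), while Impdh2 stood at 42.2 ± 1.68 and 34.5 ± 6.57 CPM. In T cells the level ranges of Impdh1, 26.1 to 35.3, and Impdh2, 29.9 to 39.2, overlapped, whereas in B16F10 they were far apart. The overlap in T cells depends on the gene length taken. With the longest transcript, 2.60 kilobases for Impdh1 and 1.86 for Impdh2, Impdh2 ranged from 49.5 to 64.9 CPM per kilobase there. Impdh1, at 85.8 to 116 CPM before division by length, then lay wholly below it. The baseline difference of Impdh1 was -2.19 ± 0.15 on the log2 scale (edgeR adjusted p = 7.00e-05). The cytidine triphosphate synthases stood in opposite order. Ctps stood at 31.1 ± 0.445 CPM per kilobase in B16F10 and 3.10 ± 0.246 in T cells, with a log2 fold change of 3.08 ± 0.17. Ctps2 stood at 3.53 ± 0.0935 and 26.2 ± 6.69, with a log2 fold change of -3.13 ± 0.17. Of the adenylosuccinate synthases, Adssl1 was higher in B16F10 (2.04 ± 0.27), and Adss was at 15.5 ± 0.344 CPM per kilobase there and 27.9 ± 14.0 in T cells. The phosphoribosyl pyrophosphate synthase Prps1 was at 15.8 ± 0.966 and 33.0 ± 10.9, and Prps2 at 13.1 ± 0.757 and 15.4 ± 0.488. Of the 10 further de novo genes, 4 were higher and 5 lower in B16F10 (2 to 4 and 3 to 6 with 1 library left out). Over all genes tested, 35.8% were called higher and 35.4% lower.

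**Figure D4:**
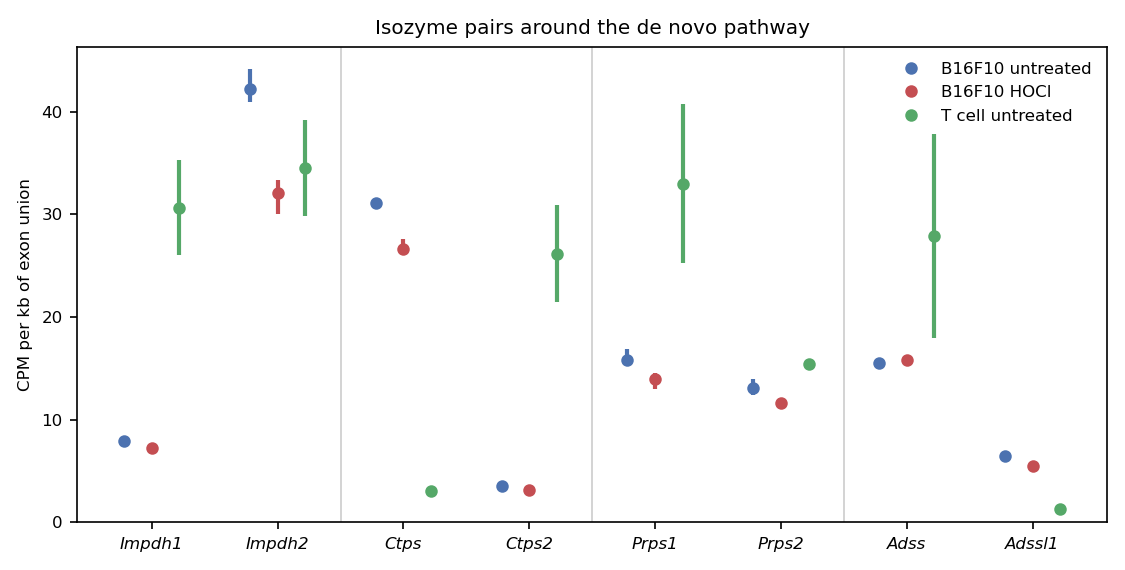
Points are group means and bars the range over libraries, in counts per M per kilobase of exon union, for 4 isozyme pairs around the de novo route. Ctps is high and Ctps2 low in B16F10, the reverse holds in untreated T cells, and Impdh1 approaches Impdh2 only in T cells.

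Levels set against length ranked the enzymes differently in the cell types. In untreated B16F10 Paics led with 62.1 ± 1.38 CPM per kilobase, followed by Impdh2 (42.2 ± 1.68) and Atic (40.0 ± 1.66), which overlapped. Next came Cad (35.7 ± 1.20) and Gart (32.9 ± 0.848), then Umps (24.6 ± 0.997) and Adsl (23.9 ± 1.27), which overlapped, then Ppat (20.3 ± 0.557), Pfas (15.6 ± 1.30) and last Dhodh (4.54 ± 0.259). The order depends on the gene length taken. With the longest transcript, Atic, whose exon union is 7.99 kilobases long and whose longest transcript is 2.85, led with 112 ± 4.65 CPM per kilobase, ahead of Paics with 78.6 ± 1.74, and Dhodh was last again. In untreated T cells Impdh2 (34.5 ± 6.57) and Paics (32.4 ± 6.43) overlapped at the top. The other 8 followed from Adsl (7.83 ± 0.701) down to Dhodh (2.21 ± 0.0829), and from Adsl to Pfas each overlapped the next. With the longest transcript, Impdh2 (57.2 ± 10.9) and Paics (41.0 ± 8.14) were apart in untreated T cells. Atic (18.3 ± 0.701), Adsl (11.9 ± 1.06) and Gart (10.1 ± 2.82) came next.

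**Figure D5:**
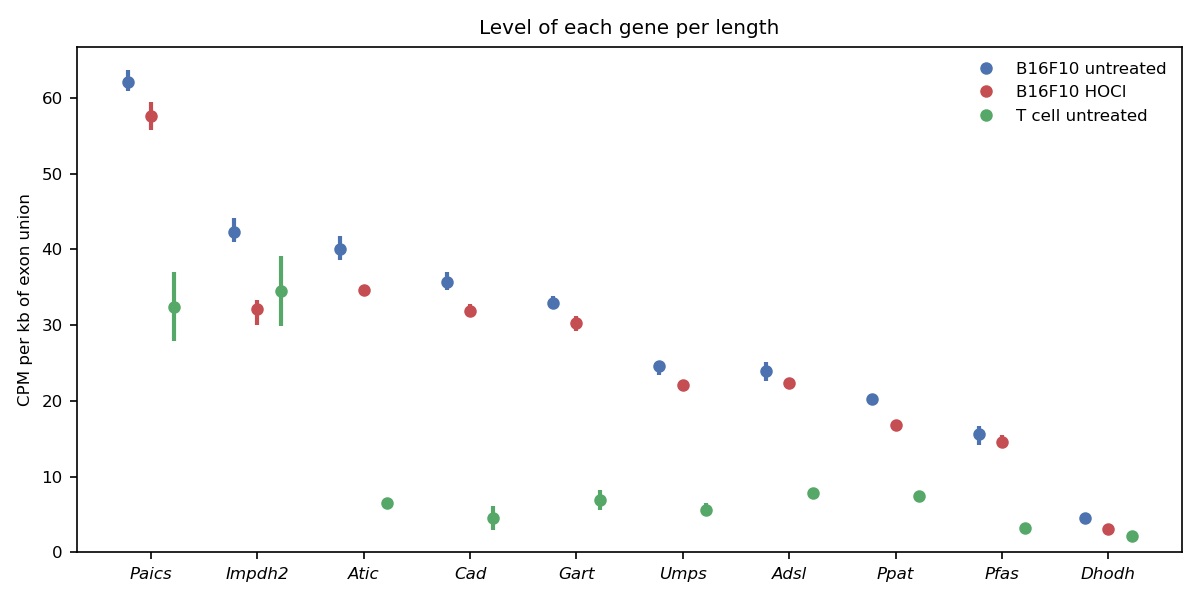
Points are group means and bars the range over libraries for the 10 enzymes, in counts per M per kilobase of exon union, ordered by the level in untreated B16F10. By this length T cells hold Impdh2 and Paics near 30 and the other 8 genes below 10, while B16F10 spreads from 62.1 for Paics to 4.54 for Dhodh.

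The counts of the surrounding lists are to be read beside the 35.8% of all genes tested that were called higher and the 35.4% called lower. Deoxynucleotide supply had 9 of 11 genes higher in B16F10 and 2 lower. Rrm2, the S phase subunit of ribonucleotide reductase, stood at 409 ± 8.81 CPM against 5.90 ± 2.02 CPM in T cells, and Cmpk2 at 48.3 ± 0.775 against 1.12 ± 0.283. Samhd1, which destroys deoxynucleotides, was lower, at 75.3 ± 2.07 against 355 ± 146 CPM, as was Rrm2b (-0.76 ± 0.20), whose call was lost without untreated B16F10 replicate 1 and without TMM. Nucleotide kinases were higher in 9 of 13 and lower in 0, led by Ak1 and Ak4, adenylate kinases at 83.8 ± 8.05 and 16.02 ± 0.721 CPM against 0.328 ± 0.273 and 0.187 ± 0.0472 CPM. Salvage was mixed, with 8 higher and 5 lower of 17. Upp1 and Upp2 were below 0.2 CPM in T cells and near 4 in B16F10, while Tk2, the mitochondrial thymidine kinase, was at 18.2 ± 1.49 against 65.3 ± 3.79 CPM and Uckl1, a uridine-cytidine kinase-like gene, at 27.6 ± 0.741 against 71.8 ± 43.1 CPM.

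Folate and glycine genes were higher in 13 and lower in 1 of 18 (7 to 14 and 0 to 3 with 1 library left out). Aldh1l2 stood at 136 ± 19.5 against 0.5003 ± 0.0288 CPM and Aldh1l1, its cytosolic relative, at 73.9 ± 2.99 against 0.582 ± 0.225 CPM. The lower gene was Amt of the glycine cleavage system (-1.60 ± 0.50), whose call was lost without any single library but T cell replicate 2, and without TMM. Glutamine and aspartate genes were higher in 8 and lower in 1 of 12 (6 to 9 and 0 to 4 with 1 library left out), with Slc25a13 at 172 ± 2.08 against 1.88 ± 0.458 CPM and Asns, asparagine synthetase, at 285 ± 10.1 against 9.34 ± 6.98 CPM. Ribose phosphate genes were higher in 4 and lower in 0 of 7, G6pdx by 2.87 ± 0.23 and Pgd by 2.19 ± 0.21. Breakdown genes were mixed, with 4 higher and 5 lower of 13 (median 0.06). Ampd3 stood at 40.9 ± 4.52 CPM in B16F10 against 2.77 ± 2.31 in T cells, and Itpa, an inosine triphosphatase, at 79.1 ± 5.48 against 21.7 ± 3.58. Nt5e, the ectonucleotidase CD73, stood at 0.0666 ± 0.0368 CPM against 123 ± 33.0, and Entpd1, CD39, at 0.0684 ± 0.0280 against 4.01 ± 1.58. Of 5 transporters 1 was higher and 2 lower. Slc28a2, a concentrative purine nucleoside carrier, stood at 160 ± 94.7 CPM in T cells and 0.167 ± 0.0931 in B16F10, Slc43a3, a purine nucleobase carrier, at 3.55 ± 0.851 and 0.0140 ± 0.0242, and Slc29a1 was higher in B16F10 (1.00 ± 0.24).

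Of 11 factors 3 were higher and 5 lower in B16F10 (2 to 5 and 4 to 7 with 1 library left out). E2f1 stood at 89.0 ± 4.11 against 5.01 ± 0.732 CPM and Myc at 60.0 ± 0.310 against 25.7 ± 4.14 CPM. Mga was lower, at 42.7 ± 6.82 against 167 ± 61.2 CPM, and so was Usf1, at 35.2 ± 2.20 against 116 ± 46.7 CPM. Proliferation markers were higher in B16F10 in 11 of 12, with sums of 671 and 748 CPM in T cells against 3399 to 3481 CPM. Their part in the baseline difference, and that of the B cell transcripts in the T cell libraries, was not tested. Over the 10 lists, 63 of 117 genes were higher and 26 lower (median 0.70), beside 35.8% and 35.4% of all genes tested. Whether any list departs from these shares was not tested.

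The T cell HOCl library gives single values, with 95% exact Poisson intervals that cover counting error only. Relative to both untreated T cell libraries, 8 genes were higher and 2, Paics and Impdh2, lower in CPM. Of all genes of the baseline test, 51.9% were above both and 35.4% below both. Impdh2 stood at 56.4 CPM (52.4 to 60.7) against 91.9 and 120.5, and Paics at 64.6 CPM (60.3 to 69.2) against 87.5 and 116. Cad stood at 104 CPM (98.0 to 109) against 50.4 and 24.3, Atic at 93.6 CPM (88.4 to 99.1) against 50.7 and 53.5, and Pfas at 62.3 CPM (58.0 to 66.7) against 28.8 and 22.8. Gart was at 71.1, Adsl at 52.9, Ppat at 35.7, Umps at 23.9 and Dhodh at 20.3 CPM. The interval of Ppat, 32.5 to 39.1, and that of Umps, 21.3 to 26.7, reach below the higher untreated library.

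With mitochondrial transcripts left out of the denominator, a choice added after seeing the data, Impdh2 in that library was 90.2 per M against 93.4 and 123 and remained below both, whereas Paics at 103 lay between 88.9 and 119. The other 8 were above both, as were 64.4% of all genes, and 22.4% were below both. The same library carried the melanoma markers at 6759 CPM, and each of the 10 genes stood there at 27.9% (Umps) to 70.7% (Dhodh) of its untreated B16F10 level. The part of those melanoma transcripts in the values was not tested. In the authors' deposited table for T cells, the log2 fold changes were lowest for Impdh2 (-1.73) and Paics (-1.48). They were also below 0 for Ppat (-0.70), Adsl (-0.56), Umps (-0.55) and Dhodh (-0.28), unlike the CPM order above. Cad (0.69), Pfas (0.46), Gart (0.20) and Atic (0.02) were above 0. That table does not name its groups by treatment either, so its signs also rest on the order of its groups. An interaction contrast over all 9 libraries, also added after seeing the data, gave a difference between the HOCl effects in T cells and B16F10 past the threshold for 7 of the 10 genes and for 46.2% of all genes.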

How the data were processed

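Gene counts of 9 libraries were used. The deposited files hold raw counts of reads per gene, made by the authors and not normalised. The submitters' processing notes list mm10 as the build, and STAR 2.7.1a, FastQC 0.11.8, DESeq2 1.22.2 and featureCounts 1.6.0 as tools. No annotation release, strand setting or multi-mapping rule is given in the sources used here. The authors' deposited tables of log2 fold changes and adjusted p-values were used only to set calls beside those computed here.

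Genes kept by filterByExpr were tested with edgeR 4.0.16 (R 4.3.3): TMM scaling, robust quasi-likelihood fit and F test, Benjamini-Hochberg adjustment over all genes tested, threshold 0.05, with only the groups compared in each fit. Standard errors were taken as |log2 fold change| over the root of F. CPM are per M gene counts of a library, as mean ± SD. Alternatives included DESeq2 1.42.0. The fits were also run on simulated counts with the same set spread between libraries for every gene. That run checks the code only and says nothing of the spread in the libraries here. The T cell HOCl group has 1 library and was not tested alone.

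No libraries of a group agreed within counting noise (chi-square per degree of freedom 3.73 to 23.2 in B16F10 and 393 in T cells). Gene models are GENCODE M21, and promoters are RefSeq sequences of GRCm38.p6, a build with the same coordinates as mm10. Promoter motifs were searched on both strands. The 10 genes, the surrounding lists and the alternatives were chosen with earlier results of these data known, so the pattern they show is not independent support of those results. Beside the 10 genes, each list named up to 2 genes per direction, the largest in log2 fold change of those that passed and had 50 or more mean counts in whichever group was higher. Some genes that met this rule are counted but not reported by name here.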

Additional observations from a re-analysis of the deposited data

Results flagged for a closer look

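For 7 of the 10 genes the HOCl effect in T cells differed from that in B16F10 by an interaction contrast over all 9 libraries (edgeR's quasi-likelihood F test, Benjamini-Hochberg adjusted), as it did for 46.2% of the 34290 genes tested. The contrast was chosen after seeing the data. It compares 1 T cell HOCl library with 2 untreated ones and takes its spread to be that of the other groups. As log2 effects in T cells minus those in B16F10, the difference was 1.33 ± 0.34 (SE) for Cad, 1.05 ± 0.21 for Pfas, 0.80 ± 0.23 for Gart, 0.76 ± 0.23 for Dhodh and 0.73 ± 0.19 for Atic. It was -0.88 ± 0.25 for Paics and -0.85 ± 0.26 for Impdh2. The edgeR adjusted p lay between 0.00228 for Pfas and 0.0214 for Dhodh. Umps (0.11 ± 0.27), Ppat (0.06 ± 0.21) and Adsl (0.03 ± 0.21) did not pass. Melanoma markers in that T cell HOCl library summed to 6759 CPM and mitochondrial transcripts took 37.4% of its counts. Their part in these differences was not tested.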

How the results depend on the processing

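In B16F10, the 8 falls became 0 against a 1.5-fold change and 0 with all 9 libraries in 1 fit, where the calls over all genes became 28 higher and 45 lower, and 11 higher and 26 lower. The listed pathway genes called became 0 higher and 2 lower under each of these settings. With 1 library left out at a time, 4 to 9 of the 10 genes were lower, and 1605 to 2819 of all genes were higher and 1410 to 2634 lower, the lowest 1432 and 1410 without HOCl replicate 2 and 3. In the baseline comparison, untreated B16F10 against untreated T cells, the sign of the Impdh2 estimate turned under several settings. It was -0.032 with RLE size factors, -0.081 with a filter of 1 CPM and -0.032 with DESeq2. Without B16F10 replicates 1, 2 and 3 it was -0.096, -0.014 and -0.026. It was -0.18 without T cell replicate 1 and 0.36 without T cell replicate 2. The cause was not tested. All other estimates of the 10 genes kept their direction in both comparisons.

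Deviations of same-numbered libraries from their group means had correlations of 0.0872, -0.0218 and 0.0369 in B16F10, and -0.258 and -0.224 between cell types. Deviations within a group depend on each other, and those of the 2 T cell libraries are mirror images. These values therefore cannot decide whether same-numbered libraries were prepared together. With the replicate number as a block, 8 of the 10 genes were lower in HOCl (2726 of all genes higher and 2567 lower), and 7 were higher at the baseline (5320 and 4763 of all genes), with Dhodh and Paics lost. Per-length levels moved by more than 1 SD for 9 of 10 genes with the longest transcript, and summed levels on the TMM scale were 1583 ± 13.2 and 1373 ± 11.1 CPM. The interval given for the single T cell value with HOCl covers counting error only, not that library's makeup or the spread between libraries.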
